A study of Homo sapiens with 4 samples.

Results

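The RNAs described here are 10 long non-coding RNAs of LX-2 cells: MALAT1, NEAT1, NORAD, KCNQ1OT1, MEG3, H19, SNHG5, GAS5, SNHG1 and SNHG12. LX-2 cells descend from human hepatic stellate cells, were immortalised in culture, and can turn into scar-forming myofibroblasts. The 10 genes were picked by name, because they were higher in the BDS4 library than in the TGF-β library, so that difference chose them and is given below as a description only. All 10 were found among the 63241 genes of the count table and all 10 passed the filter on low counts, with 16099 genes in all and 1562 long non-coding genes. H19 passed it through the RVX-208 and control libraries alone. The name "abundant" held for some of them and not for others, as the levels below show.

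There were 4 libraries, 1 per group. All cells were starved in 0.5% serum before treatment, and the 3 treated groups then received TGF-β at 20 ng/mL for 24 h. TGF-β came with 5 µM BDS4 in the first group, with 5 µM RVX-208 in the second, and with no compound in the third, whose label names DMSO. The fourth group is the control without TGF-β, whose label does not say whether vehicle was added. RVX-208, also called apabetalone, binds the bromodomains of BET proteins, readers of acetylated histones, and favours the second of each protein's pair. BDS4 is known by its code name alone, and the title of the series is about covalent inhibitors of BD1, the first bromodomain. With 1 library per group no spread between cultures could be measured, so no difference below was tested against one. Differences are ratios of scaled counts, with the 95% interval of counting error in brackets.

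Long non-coding RNAs are transcripts that are not translated into a known protein, and many of them stay in the nucleus. NEAT1 is the scaffold of paraspeckles, nuclear bodies that hold RNA-binding proteins, and MALAT1 collects in nuclear speckles, where splicing factors are stored. NORAD is a cytoplasmic RNA that binds Pumilio proteins, which repress mRNAs. KCNQ1OT1, MEG3 and H19 are imprinted, that is, read from the copy of 1 parent only, and KCNQ1OT1 silences neighbouring genes on its own chromosome. GAS5, SNHG1, SNHG5 and SNHG12 are hosts of small nucleolar RNAs, which are cut from their introns and guide the modification of ribosomal RNA. Spliced host RNAs of this kind are commonly broken down by nonsense-mediated decay, and several begin with the run of pyrimidines known from ribosomal protein mRNAs. In liver, H19, MEG3 and MALAT1 have been studied in models of fibrosis.

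Sequence features on which these roles rest were read from the reference. NORAD carries the Pumilio recognition letters TGTANATA 15 times in its single annotated transcript of 5339 bases, or 2.81 times per kb. That placed NORAD at rank 3 among the 1562 long non-coding genes, both by number and per length, and 16.97% of those genes hold the letters at least 1 time in their longest transcript. Of the other RNAs here, the longest transcript held 9 matches in KCNQ1OT1, 6 in NEAT1, 1 in MEG3 and 1 in SNHG1, and none in MALAT1, GAS5, SNHG5, SNHG12 or H19. Shown are 3 of the matches in NORAD, with the match in capitals, on the minus strand of GRCh38 with GENCODE 29, at chr20:36049806-36049829, chr20:36047974-36047997 and chr20:36047353-36047376.
NORAD match 2: cactactgTGTATATAgttgacaa
NORAD match 11: ccctactgTGTATATAgcggacaa
NORAD match 14: tgctactgTGTATATAatggaaaa

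MALAT1 and the long form of NEAT1 end in an A-rich tract that is encoded in the genome, folds into a triple helix and takes the place of a poly(A) tail. This matters here because the libraries were made with an mRNA kit, and the sources used here do not say how that kit treats RNAs without such a tail. The tracts are shown with the A-rich part in capitals, on the plus strand of GRCh38, at chr11:65506087-65506116 for MALAT1 and chr11:65445511-65445540 for NEAT1. The MALAT1 tract ends 353 bases before the end of the annotated transcript, and the NEAT1 tract ends with it.
MALAT1: ttttctagcttAAAAAAAAAAAAAGCAAAA
NEAT1: ctgtgaaagagtgagcaggAAAAAGCAAAA

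Promoters were taken from RefSeq on GRCh38.p14, where 8 of the 10 genes matched through 11 entries, each from 250 bases before the start of the transcript to 50 bases after it. Shown are 3 windows of 80 bases, from 50 before the start to 30 from the start on, because they hold the features that set these genes apart by sequence. They lie at chr1:28581844-28581923 on the minus strand for SNHG12, chr6:85678704-85678783 on the minus strand for SNHG5 and chr14:100826058-100826137 on the plus strand for MEG3. Capitals in the SNHG12 and SNHG5 windows mark the TATA letters and then the pyrimidine run at the start, and capitals in the MEG3 window mark a cAMP response element.
SNHG12: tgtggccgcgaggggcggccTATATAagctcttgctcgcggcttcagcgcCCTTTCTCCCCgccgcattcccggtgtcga
SNHG5: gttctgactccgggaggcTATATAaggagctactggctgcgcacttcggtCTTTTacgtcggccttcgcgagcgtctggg
MEG3: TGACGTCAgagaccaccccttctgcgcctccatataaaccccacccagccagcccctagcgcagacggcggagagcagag

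TATA letters, TATAAA or TATATA on the transcribed strand between 40 and 15 bases before the start, were in 4 of the 11 entries, from SNHG12, SNHG5, MALAT1 and MEG3, against 3.10% of all 35116 entries. A start at C with a run of at least 5 pyrimidines was in the SNHG12 and SNHG5 entries, against 4.07% of all entries and 59.3% of the 86 entries of a list of ribosomal protein and related mRNAs. The GAS5 entry starts at chr1:173869045, upstream of the GENCODE 29 start of that gene at 173868882. The entry does not reach that start, so the run was not looked for there. The cAMP response element TGACGTCA, searched on both strands as were the letters that follow, was in the 3 overlapping entries of MEG3, which share it, against 1.85% of all entries. CACGTG, the E-box of MYC and related factors, was in the NORAD entry, against 7.26% of all. TGACNNNGC, the core of the antioxidant response element, was in the NORAD entry and in 1 of the MALAT1 entries, against 13.3% of all. The AP-1 letters TGANTCA, in 7.71% of all entries, and the ATF4 and C/EBP letters TGATGCAA, in 0.866%, were in none of the 11. These matches describe the letters and are not binding sites.

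Library totals ran from 17022369 to 22503094 counts. The 10 RNAs took 0.364% of the counts in the BDS4 library, against 0.156% with RVX-208, 0.124% with TGF-β alone and 0.113% in the control. Mitochondrial rRNA moved beside them: MT-RNR1 and MT-RNR2 together took 0.903% of the counts with BDS4, 0.230% with RVX-208, 0.248% with TGF-β and 0.212% in the control. The 13 mitochondrial mRNAs took 0.891% with BDS4, 1.48% with RVX-208, 1.49% with TGF-β and 1.47% in the control. The part of either in the results for the 10 RNAs was not tested. With both classes left out of the library totals and of the scaling, each of the 10 genes kept its call in each of the 6 comparisons. Leaving them out hardly changed the scaling (BDS4 factor 0.9433 with them, 0.9436 without), so the calls could hardly move. VIM, the vimentin gene of mesenchymal cells, lay between 3290 and 4080 CPM (counts per 1000000 counts, scaled by the TMM method) in the 4 libraries. Of 10 stellate or fibroblast markers 8 passed the filter, their summed level was 4598 CPM with BDS4, 7794 with RVX-208, 9521 with TGF-β and 6213 in the control, and LRAT was at 0 throughout. VIM made up most of that sum with BDS4: the other markers summed to 518 CPM with BDS4, 3742 with RVX-208, 5970.0 with TGF-β and 2923 in the control. For BDS4 over TGF-β 4 of the 8 were 2-fold or more lower, COL1A1, COL1A2, PDGFRB and SPARC, and none higher, with a median log2 ratio of -1.52. The part of this in the results for the 10 RNAs was not tested. Of hepatocyte markers 1 of 6 passed (1.62 to 3.80 CPM summed over the list in the 4 libraries), of leukocyte markers 5 of 6 (18.5 to 42.2 CPM, with PTPRC at 0 to 4 counts), of endothelial markers 2 of 6 (6.16 to 11.8 CPM) and of epithelial markers 3 of 6 (172 to 762 CPM, lowest with BDS4). TTR and CYP3A4, of hepatocytes, and STAB2 and CLEC4G, of sinusoidal endothelium, were at 0 in every library. In bulk RNA, fewer cells of a type and less RNA per cell cannot be told apart.

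The levels of the 10 RNAs differed widely, as the plot of levels by library shows. NORAD was the long non-coding gene with the most CPM in each of the 4 libraries, at 1470.3 CPM with BDS4, 876 with RVX-208, 655 with TGF-β and 524 in the control. At the other end, H19 had 0.785 CPM with BDS4, 1.43 with RVX-208, 0.181 with TGF-β and 2.22 in the control, and ranked between 664th and 1511th among the 1562 long non-coding genes. KCNQ1OT1 ranked 39th with BDS4 but 324th with RVX-208, 549th with TGF-β and 677th in the control. SNHG12 ranked 99th with BDS4, 147th with RVX-208, 207th with TGF-β and 210th in the control. The other 7 RNAs were among the top 64 long non-coding genes in every library. All these ranks are by CPM, which takes no account of gene length. Per kb of exon, NEAT1 ranked 7th with BDS4 but 325th with TGF-β, and MALAT1 85th and 306th. KCNQ1OT1 ranked 1063rd per kb with BDS4. NORAD ranked 1st or 2nd per kb in every library, and SNHG5 between 2nd and 9th. NORAD made up 38.1% of the counts of the 10 with BDS4, against 55.5% with RVX-208, 53.3% with TGF-β and 49.3% in the control. NEAT1 made up 25.1% with BDS4, against 8.05% with RVX-208, 4.92% with TGF-β and 6.29% in the control.

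**Figure D1:**
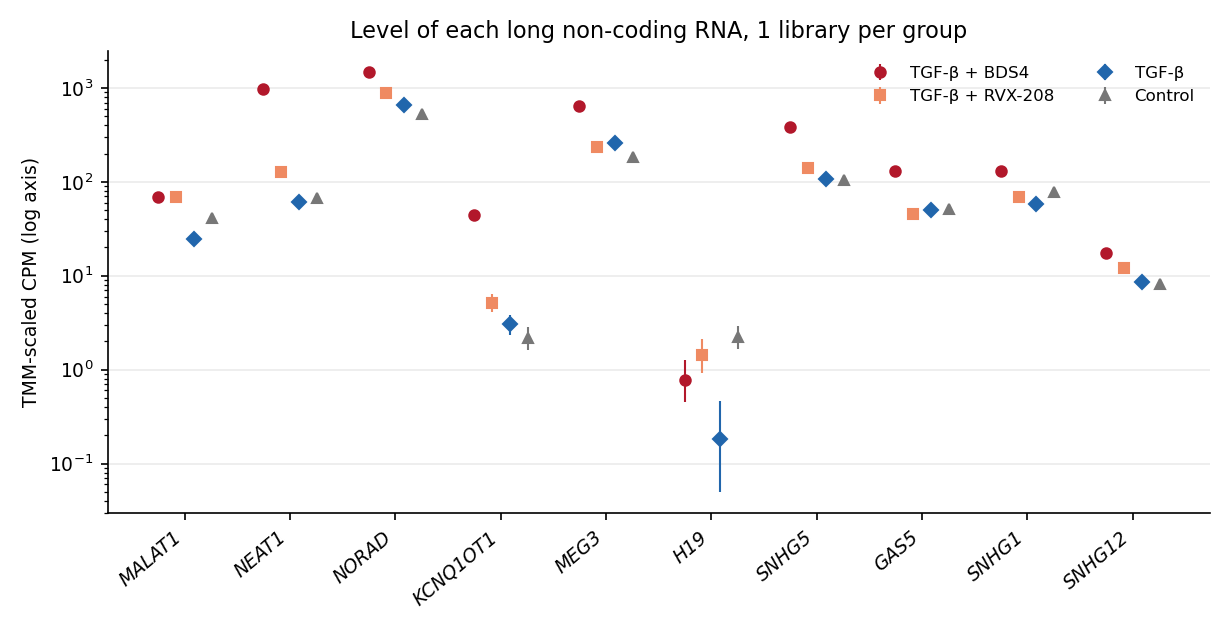
Level of each of the 10 RNAs in the 4 libraries, in TMM-scaled CPM on a log axis; each point is 1 library and each bar the exact 95% Poisson interval of its count. The BDS4 library is the highest of the 4 for 8 RNAs, MALAT1 stands equally high with RVX-208, and H19 is highest in the control.

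Between genes, levels were compared per kb of exon in GENCODE 29. On that scale NORAD led with 275 CPM per kb with BDS4, 164 with RVX-208, 123 with TGF-β and 98.1 in the control. SNHG5 came next, at 138 CPM per kb with BDS4, 49.98 with RVX-208, 38.5 with TGF-β and 37.4 in the control. NEAT1, with its 22767 exon bases, was next with BDS4 at 42.5 CPM per kb, yet in the TGF-β library it stood at 2.66, close to MALAT1 at 2.76. GAS5 and SNHG1 were neighbours in the order, at 36.2 and 35.1 CPM per kb with BDS4 and at 13.8 and 15.4 with TGF-β. KCNQ1OT1, annotated as a single exon of 91667 bases, had 0.486 CPM per kb with BDS4, 0.0564 with RVX-208, 0.0331 with TGF-β and 0.0238 in the control. In the TGF-β library H19, at 0.0625 CPM per kb (4 counts), was above KCNQ1OT1, an order that the intervals of the 2 do not separate. The scale assumes that reads spread over all annotated exons, and the short and long forms of NEAT1 share their first part and cannot be told apart in gene-level counts.

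**Figure D2:**
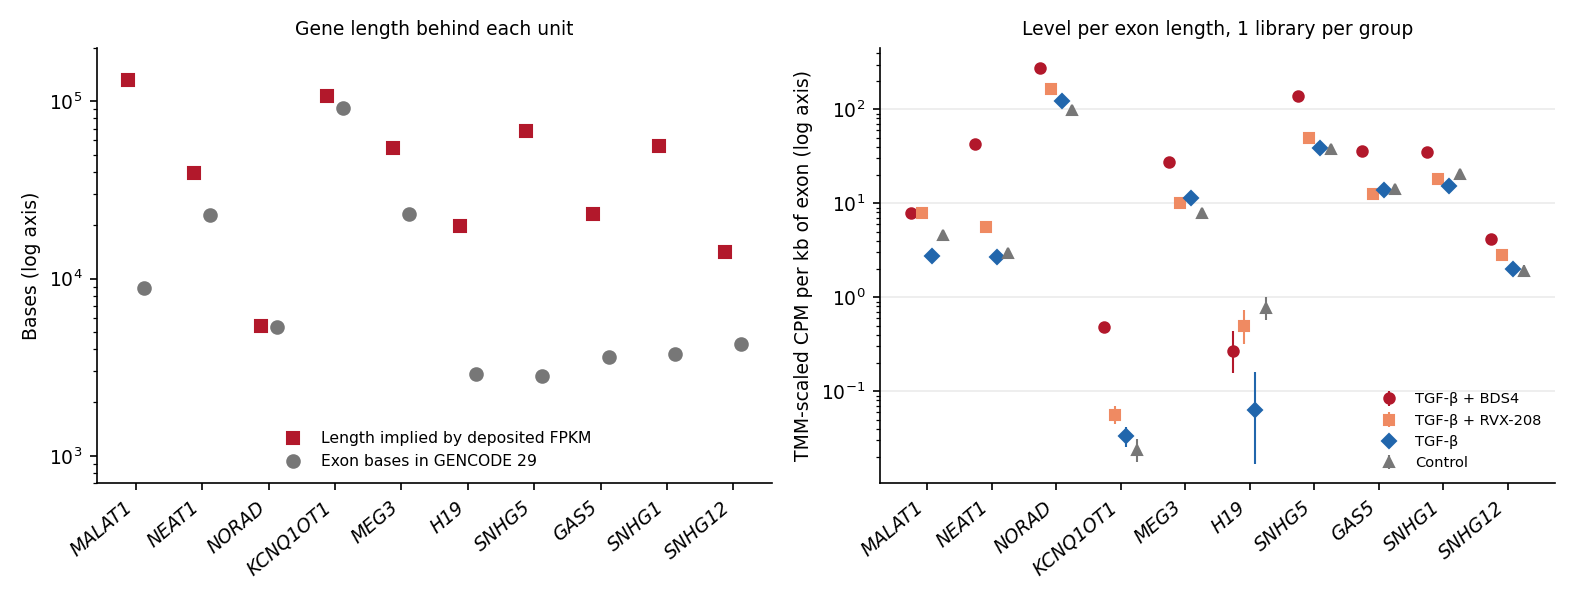
Left, the gene length that the deposited FPKM values imply beside the exon bases in GENCODE 29, both on a log axis; right, level per kb of exon in each library with its 95% counting interval, on a log axis. The implied length exceeds the exon bases 24.3 times for SNHG5 and 1.01 times for NORAD, so that the deposited FPKM orders these genes differently.

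The length scale matters for these RNAs because of how the deposited FPKM behaves. Count, library total and FPKM together imply 1 length per gene, and for MALAT1 that length was 130999 bases, against 8829 exon bases. For SNHG5 it was 68157 against 2806, for SNHG1 55890 against 3756, and for NORAD 5401 against 5339. NORAD and KCNQ1OT1 have 1 annotated transcript each, and their implied lengths were 1.01 and 1.16 times the exon bases. The 5 RNAs with the largest excess, SNHG5, SNHG1, MALAT1, H19 and GAS5, have 12 to 29 annotated transcripts. The excess did not follow the number of transcripts in every gene, since MEG3 has 48 at 2.35 times and SNHG12 has 17 at 3.32 times. The median over 9069 genes was 1.70. Ratios between libraries of 1 gene are not touched by this, since its length cancels.

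NEAT1 and MALAT1 lie side by side on chromosome 11, on the plus strand, with 52148 bases between them. NEAT1 (chr11:65422774-65445540) had 968 CPM with BDS4, 127 with RVX-208, 60.6 with TGF-β and 66.8 in the control. Its level with BDS4 stood far above the other 3, and the ratio over TGF-β was 15.99 (15.1 to 16.9). MALAT1 (chr11:65497688-65506516) had 69.0 CPM with BDS4, 69.1 with RVX-208, 24.4 with TGF-β and 40.9 in the control. The levels with BDS4 and with RVX-208 differed by less than the counting error, with a BDS4 over TGF-β ratio of 2.83 (2.56 to 3.13) and a BDS4 over RVX-208 ratio of 0.999 (0.923 to 1.08). FRMD8, a protein-coding gene beside NEAT1, had a BDS4 over TGF-β ratio of 0.922 and was not called.

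The word higher or lower is used of a gene whose ratio differed 2-fold or more in that direction, with an interval that left out 1, and such a gene is said to be called. By that rule all 10 RNAs were higher in the BDS4 library than in the TGF-β library, where 14.5% of all genes tested were higher and 17.7% lower. Since this contrast chose the genes, nothing is read from the count. The ratios ran from 2.05 (1.71 to 2.45) for SNHG12, the member nearest to the limit, to 15.99 for NEAT1, with a median log2 ratio of 1.44 beside -0.01 over all genes. Total-count scaling put SNHG12 at 1.91-fold, below the limit. Among other host RNAs of the same kind, SNHG8 stood just outside it at 1.86 and SNHG7 at 1.74.

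**Figure D3:**
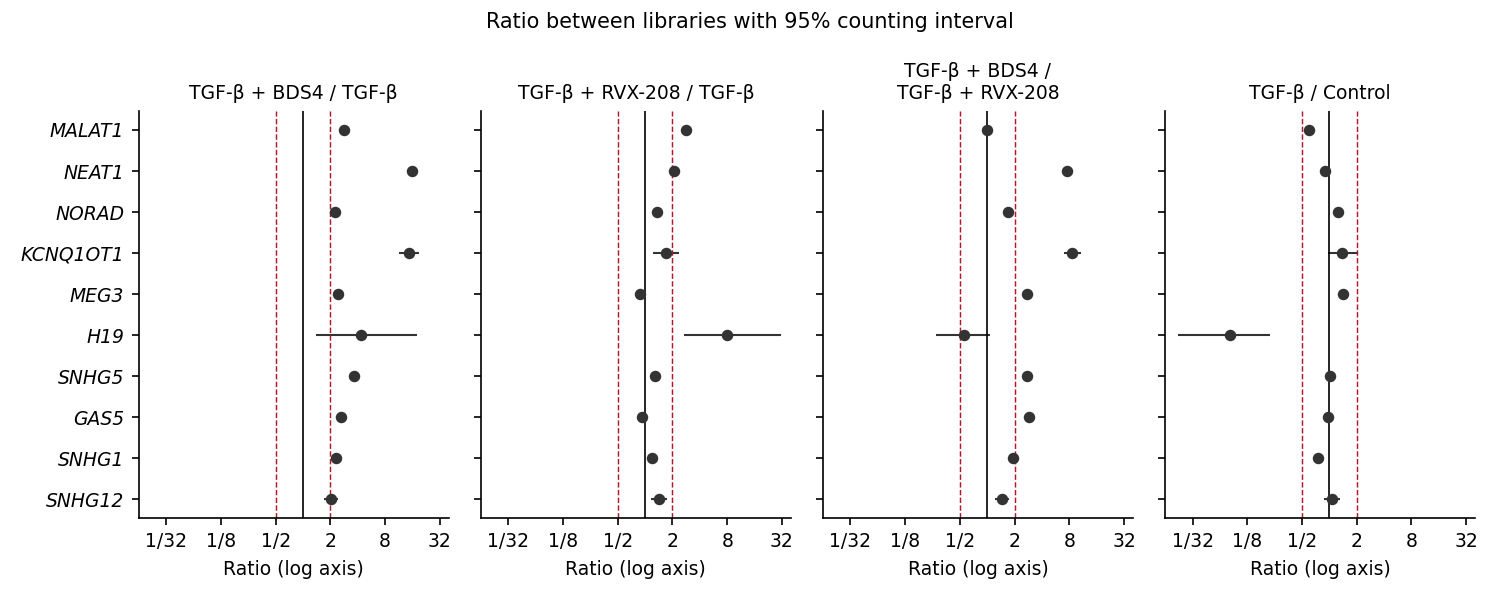
Ratio of each of the 10 RNAs between pairs of libraries, on a log axis with the 95% counting interval; the solid line is no difference and the dashed lines are 2-fold. The 10 points lie above 2 in the first panel, which is how they were chosen, 3 do so for RVX-208 over TGF-β, and H19 is the single point beyond 2-fold for TGF-β over control.

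The 3 imprinted RNAs differed among themselves. KCNQ1OT1 (chr11:2608328-2699994, minus strand) had 44.5 CPM with BDS4 (908 counts), 5.17 with RVX-208 (87), 3.03 with TGF-β (67) and 2.18 in the control (52). The BDS4 over TGF-β ratio was 14.7 (11.4 to 19.1), the second largest of the 10. Its host on the other strand, the potassium channel gene KCNQ1, had 0 counts in all 4 libraries, while CDKN1C, a cell cycle inhibitor gene in the same imprinted cluster, was 3.03-fold higher with BDS4 than with TGF-β (1.79 to 5.33) on 56 against 20 counts. SLC22A18, a transporter gene of that cluster, was lower at a ratio of 0.293 (0.176 to 0.469).

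MEG3 (chr14:100779410-100861031, plus strand) had 637 CPM with BDS4, 233 with RVX-208, 262 with TGF-β and 185 in the control, which gave 2.43 (2.35 to 2.51) for BDS4 over TGF-β. The non-coding RNAs further along the same imprinted cluster were also higher with BDS4. MEG8 had 43.3 CPM with BDS4, 12.1 with RVX-208, 11.2 with TGF-β and 9.04 in the control, a BDS4 over TGF-β ratio of 3.86 (3.35 to 4.46). MEG9 had 51.4 CPM with BDS4, 27.9 with RVX-208, 23.3 with TGF-β and 24.4 in the control, a ratio of 2.21 (1.98 to 2.46). The protein-coding genes beside MEG3 were near 0, with DLK1 at 0 or 1 count and RTL1 at 0 to 2 counts per library.

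H19 (chr11:1995176-2001470, minus strand) rested on few reads, 16 with BDS4, 24 with RVX-208, 4 with TGF-β and 53 in the control. The TGF-β library was the low one, and the BDS4 over TGF-β ratio of 4.33 had the wide interval 1.40 to 17.8. IGF2, the growth factor gene that shares its enhancers with H19, was highest in the TGF-β library, where H19 had the fewest counts. It had 69.8 CPM with BDS4, 91.7 with RVX-208, 183 with TGF-β and 67.8 in the control. IGF2 was lower with BDS4 than with TGF-β, at a ratio of 0.381 (0.359 to 0.405). Of the 12 imprinted neighbours listed, 5 passed the filter, and with BDS4 over TGF-β 3 were higher and 2 lower.

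NORAD (chr20:36045622-36050960, minus strand) had a BDS4 over TGF-β ratio of 2.24 (2.20 to 2.29). Its levels, given above, put the RVX-208 library between the BDS4 and TGF-β libraries. PUM2, the gene of a Pumilio protein that binds it, had 109 CPM with BDS4 and 128 with TGF-β and was not called. Of 8 binding partners of NORAD and H19, 1 was called for BDS4 over TGF-β, IGF2BP1, lower at 0.0146 (0.000366 to 0.0841) on 1 count with BDS4 against 74 with TGF-β. The protein-coding gene beside NORAD, EPB41L1, was lower at a ratio of 0.484, and CNBD2 on the other side had 1.91 and was not called.

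Among the host RNAs, SNHG5 (chr6:85660950-85678748, minus strand) had the largest difference. It had 389 CPM with BDS4, 140.3 with RVX-208, 108 with TGF-β and 105 in the control, a BDS4 over TGF-β ratio of 3.60 (3.44 to 3.77). GAS5 (chr1:173863900-173868882, minus strand) had 131 CPM with BDS4, 45.9 with RVX-208, 50.1 with TGF-β and 51.9 in the control, a ratio of 2.62 (2.44 to 2.81). For both genes the BDS4 library was the highest of the 4. The RVX-208 library lay between BDS4 and TGF-β for SNHG5 and below TGF-β for GAS5. SNHG1 (chr11:62851988-62855914, minus strand) had 132 CPM with BDS4, 68.6 with RVX-208, 57.7 with TGF-β and 77.5 in the control, a ratio of 2.28 (2.14 to 2.44). SNHG12 (chr1:28578538-28583132, minus strand) had 17.6 CPM with BDS4, 12.1 with RVX-208, 8.60 with TGF-β and 8.08 in the control, and its RVX-208 library lay between BDS4 and TGF-β.

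Some neighbours of the host genes were higher too. SLC3A2, which encodes an amino acid transporter subunit and lies 188 bases from SNHG1, had 659 CPM with BDS4, 217 with RVX-208, 251 with TGF-β and 314 in the control, a BDS4 over TGF-β ratio of 2.63. TAF12, a gene of the general transcription machinery beside SNHG12, had a ratio of 2.60. On the other sides, WDR74 had 0.833 and RCC1 1.02, and SYNCRIP beside SNHG5 had 0.924. Most of the small nucleolar RNAs themselves could not be followed: 521 genes, among them 108 small nucleolar RNA genes and 224 miRNA genes, held exactly 1 count in all 4 libraries. Inside SNHG1, 2 passed the filter, on few counts. SNORD27 had 46 counts with BDS4, 1 with RVX-208, 26 with TGF-β and 38 in the control. SNORD26 had 1, 15, 24 and 1 in that order. For BDS4 over TGF-β SNORD26 was lower, at 0.0451 (0.0011 to 0.277), and SNORD27 at 1.92 was not called. Reads of a host and of an RNA inside it may be split by the authors' counting. With counts of genes that share exons on 1 strand summed, each of the 10 genes kept its call in each comparison. That sum could change little: NORAD, KCNQ1OT1 and GAS5 share no exon bases on their strand. The genes that share them with MALAT1, NEAT1, SNHG5, SNHG12 and H19 held 1 count each per library. For SNHG1 the sum moved the BDS4 over TGF-β ratio from 2.28 to 2.23. For MEG3 it stayed at 2.43, although AL117190.1, which shares its exons, had 177 counts with BDS4 and 72 with TGF-β. Reads that were not counted at all would not show in it.

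RVX-208 over TGF-β asks what the other compound did at the same dose and time. It shares the TGF-β library with the contrast that chose the genes. Here 3 of the 10 RNAs were higher and none lower, where 2.94% of all genes were higher and 5.25% lower, and the median log2 ratio was 0.45 beside -0.00 over all genes. MALAT1 had the ratio 2.83 (2.55 to 3.14), which matched its BDS4 ratio, and NEAT1 had 2.10 (1.96 to 2.25). H19 had 7.87 (2.70 to 31.2), on 24 against 4 counts. KCNQ1OT1 had 1.70 (1.22 to 2.38), SNHG12 1.41, NORAD 1.34, SNHG5 1.30 and SNHG1 1.19, none of them called. GAS5 at 0.915 and MEG3 at 0.887 were below 1. None of the 4 host RNAs was called.

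BDS4 over RVX-208 sets both compounds against each other at 5 µM and 24 h under TGF-β, and shares the BDS4 library with the choice of genes. Of the 10 RNAs 5 were higher with BDS4 and none lower, where 11.7% of all genes were higher and 13.1% lower. KCNQ1OT1 was 8.62-fold higher (6.91 to 10.9) and NEAT1 7.62-fold (7.28 to 7.97). GAS5 was 2.87-fold higher (2.64 to 3.11), SNHG5 2.77-fold (2.65 to 2.90) and MEG3 2.74-fold (2.64 to 2.84). SNHG1 had 1.92 (1.79 to 2.06), NORAD 1.68 (1.65 to 1.71), SNHG12 1.45 (1.22 to 1.73) and H19 0.550 (0.273 to 1.08). For MALAT1 the counting interval of the ratio, 0.923 to 1.08, covered 1. Variation between cultures was not measured, so these intervals do not show which differences would recur.

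TGF-β over control also shares the TGF-β library. It moved 1 of the 10 RNAs past the rule, H19, which was lower at a ratio of 0.0816 (0.0215 to 0.222) on 4 counts with TGF-β against 53 in the control. Of all genes 4.37% were lower and 5.32% higher. IGF2, next to H19, was higher with TGF-β at 2.70 (2.55 to 2.86). MALAT1 had 0.597 (0.536 to 0.664) and SNHG1 0.744 (0.692 to 0.799), both below 1 and not called. MEG3 had 1.42 (1.37 to 1.48), KCNQ1OT1 1.39 (0.956 to 2.04) and NORAD 1.25 (1.22 to 1.28). SNHG12 at 1.06, SNHG5 at 1.03, GAS5 at 0.966 and NEAT1 at 0.906 were nearest to no difference.

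RVX-208 over control is the comparison that uses neither of the libraries by which the genes were chosen. KCNQ1OT1 was higher, at 2.37 (1.66 to 3.41) on 87 against 52 counts, and was 1 of 10 called, where 5.39% of all genes were higher and 6.88% lower. Of the long non-coding genes tested 11.4% were higher and 10.6% lower, so 1 of 10 was near the share of that class. NEAT1 had 1.90 (1.78 to 2.03), MALAT1 1.69 (1.55 to 1.84), NORAD 1.67 (1.63 to 1.71) and SNHG12 1.499 (1.23 to 1.84). GAS5 and SNHG1 had 0.884 each and H19 0.642 (0.379 to 1.06). The median log2 ratio was 0.50 beside -0.00 over all genes. BDS4 over control, which shares the BDS4 library, had 7 higher and 1 lower, where 14.9% of all genes were higher and 18.2% lower. KCNQ1OT1 was 20.4-fold higher (15.5 to 27.6), NEAT1 14.5-fold, SNHG5 3.70-fold, MEG3 3.45-fold, NORAD 2.81-fold, GAS5 2.53-fold and SNHG12 2.18-fold. SNHG1 had 1.70 and MALAT1 1.69. H19 was lower with BDS4 than in the control, at 0.354 (0.189 to 0.628), so the direction of its BDS4 ratio depended on whether TGF-β or control was set against it.

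The class the 10 RNAs belong to had calls in both directions. Of all 1562 long non-coding genes tested, 19.4% were higher and 24.5% lower with BDS4 than with TGF-β, and 5.7% were higher and 9.22% lower with RVX-208 than with TGF-β. Without the 10 genes, 293 of 1552 were higher and 383 lower with BDS4, with a median log2 ratio of -0.09. Of the 241 others with at least 10 CPM in a library, 47 were higher and 59 lower. Long non-coding genes took 1.25% of all counts with BDS4, 0.967% with RVX-208, 0.966% with TGF-β and 0.952% in the control. Without the 10 genes they took 0.882% with BDS4, 0.811% with RVX-208, 0.842% with TGF-β and 0.839% in the control.

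Of other host RNAs of small nucleolar RNAs, 22 of 25 listed were tested, 1 was higher with BDS4 than with TGF-β and 3 were lower, with a median log2 ratio of 0.13. Among all genes 14.5% were higher and 17.7% lower. The higher one was ZFAS1, at 81.1 CPM with BDS4, 26.9 with RVX-208, 23.5 with TGF-β and 22.9 in the control, a ratio of 3.45 (3.12 to 3.82). SNHG18 was the lowest at 0.110 (0.0858 to 0.140), followed by SNHG26 at 0.287 and SNHG10 at 0.392. SNHG14 and SNHG29, the 2 of these hosts with the most CPM, had 365 and 338 CPM with BDS4 against 212 and 201 with TGF-β. They were not called, and their CPM was not set per length.

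Of 21 other well-known long non-coding RNAs tested, 4 were higher and 5 lower with BDS4 than with TGF-β, beside the same 14.5% and 17.7% of all genes, with a median log2 ratio of 0.22. LINC-PINT, a p53-induced RNA, had 348 CPM with BDS4, 52.7 with RVX-208, 27.2 with TGF-β and 19.6 in the control, a ratio of 12.8 (11.8 to 13.9). That is the largest ratio of these 21, and lies below the 15.99 of NEAT1. LUCAT1 was 4.94-fold higher, LINC00472 2.66-fold and TP53TG1 2.31-fold. MIAT was lower at 0.0524 (0.0236 to 0.102), HOTAIR at 0.218, CYTOR at 0.283, MIR4435-2HG at 0.311 and MIR31HG at 0.426. With RVX-208 over TGF-β none of the 21 was higher and 3 were lower, among them OIP5-AS1 at 0.328 (0.295 to 0.364).

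**Figure D4:**
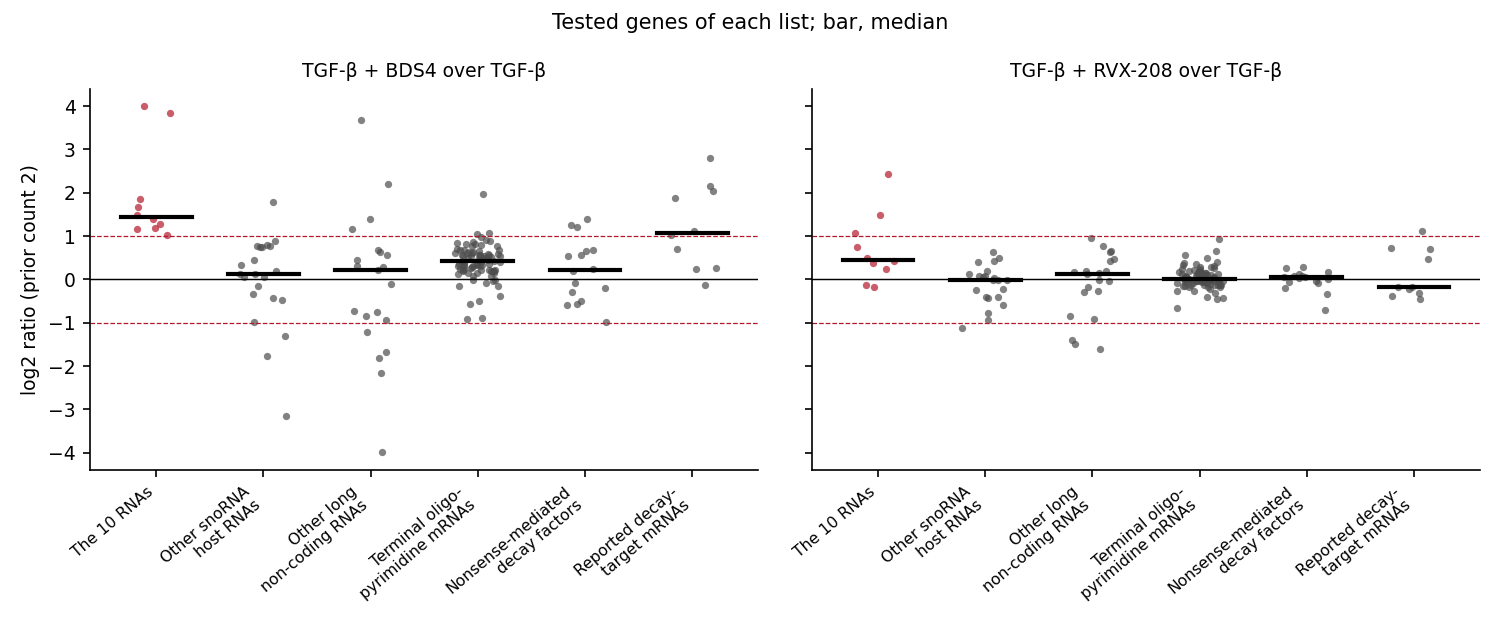
log2 ratio of each tested gene over TGF-β alone, for BDS4 on the left and RVX-208 on the right, in 6 lists; bars are medians and dashed lines 2-fold. With BDS4 the median of the 10 RNAs is 1.44, by their choice, and those of the other host RNAs and other long non-coding RNAs are 0.13 and 0.22.

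Genes for the proteins that work with these RNAs are read against the 14.5% of all genes that were higher and the 17.7% that were lower with BDS4 than with TGF-β. Of 17 paraspeckle protein genes none was higher and 1 was lower with BDS4 than with TGF-β, SMARCA4 at 0.453, with a median log2 ratio of -0.06. NONO and SFPQ, the core paraspeckle proteins that bind NEAT1, had ratios of 1.03 and 1.12. Of 20 genes for nuclear speckle proteins and MALAT1 partners 1 was higher, METTL16, a methyltransferase that binds the MALAT1 triple helix, at 2.05 (1.83 to 2.30). Of 16 genes of the nuclear RNA exosome, which degrades nuclear transcripts, and its adaptors, none was higher and 2 were lower, EXOSC10 at 0.429 and EXOSC7 at 0.465, with a median of -0.39. RN7SK, a small nuclear RNA that holds the elongation factor P-TEFb inactive, had 5.79 CPM with BDS4, 1.37 with RVX-208, 0.725 with TGF-β and 0.879 in the control, and was 7.99-fold higher with BDS4 than with TGF-β (4.72 to 14.4). Of the 6 small non-coding RNAs listed with it 3 passed the filter, and the others, RN7SL1 at 0.590 and RN7SL2 at 0.631, were not called.

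Lists that bear on how host RNAs are turned over and translated were also counted for BDS4 over TGF-β, where 14.5% of all genes were higher and 17.7% lower. Of 16 nonsense-mediated decay factor genes 3 were higher and none lower, namely EIF4A3 at 2.64, SMG1, the kinase of the pathway, at 2.38 and UPF3B at 2.32, with a median of 0.21. Of 10 mRNAs commonly reported as decay targets 6 were higher and none lower, with a median of 1.06. They were DDIT3 at 7.06 (6.39 to 7.81), GADD45A at 4.49, CDKN1A at 4.10, ATF3 at 3.69, ATF4 at 2.15 and UPP1 at 2.03. These 6 are also known as stress-response or p53 targets. With RVX-208 over TGF-β, where 2.94% of all genes were higher and 5.25% lower, 1 of the 10 was higher, ATF3 at 2.17. The list of terminal pyrimidine mRNAs, mostly those of ribosomal proteins, was set by gene name and not by a run found in the sequence. Of its 86 tested genes 3 were higher and none lower with BDS4, PABPC1 at 3.92, RPS20 at 2.12 and RPS16 at 2.06. Their median was 0.42 over the 86. Of 15 genes for proteins of small nucleolar ribonucleoproteins 1 was higher, NOP56 at 2.10, and 1 lower, GAR1 at 0.392.

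The likeness of profiles was measured as the distance between log2 CPM centred over the 4 libraries, and a smaller distance is more alike. The 10 RNAs were set against each other, and 10891 genes with at least 10 CPM in a library against the median profile of the 10. NORAD and SNHG12 were the closest pair of the 10 at 0.270, followed by MEG3 and GAS5 at 0.444 and NEAT1 and KCNQ1OT1 at 0.445. MALAT1 was nearest to SNHG12, at 0.771, and H19 was 1.83 from MALAT1, its nearest, on a profile of 4 to 53 counts per library. The other genes nearest to the median profile of the 10 were CLIC4 at 0.133, CYP2U1 at 0.136, VAMP1 at 0.138, UFD1 at 0.139 and MOB1B at 0.141. Each of the 10 RNAs lay farther from that median than these, from 0.355 for SNHG5 to 2.60 for H19. CLIC4, a chloride intracellular channel gene, had 1314 CPM with BDS4, 583 with RVX-208, 479.9 with TGF-β and 479.7 in the control. These distances rest on 4 libraries and describe those alone. Among the 4 are the BDS4 and TGF-β libraries by which the 10 were chosen, so part of their likeness follows from the choice.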

How the data were processed

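RNA of LX-2 cells was sequenced in 4 libraries, 1 per group. The deposited counts are whole-number raw counts per gene, and the deposited FPKM values were made by the authors with StringTie 1.3.0, per the series' design text. Per the submitters' processing notes, TopHat2 2.0.6, CASAVA 1.8 and GRCh38 were used. The design text names a stranded mRNA kit with paired ends. How fragments were counted, with which annotation and strand setting, the sources used here do not say. Columns were matched to groups through the sample descriptions, and for BDS4 this match rests on the description alone.

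Counts were scaled by TMM (edgeR 4.0.16, R 4.3.3; factors 0.943 for BDS4, 0.989 for RVX-208, 1.01 for TGF-β and 1.06 for the control). Genes that reached 1 CPM in any library were kept. A floor of 3 counts was 0.126 to 0.178 CPM. Ratios carry conditional exact (Clopper-Pearson) and levels exact Poisson 95% intervals, which cover counting error only. Medians use log2 ratios with a prior count of 2. GENCODE 29 gave exons, biotypes and transcripts for 58228 genes; the authors may have counted with another release. The rule was tested on simulated data, which does not measure variation between cultures. Calculations used Python 3.11.15, numpy 2.4.6, scipy 1.17.1, pandas 2.3.3 and matplotlib 3.10.9.

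The members and lists were chosen with earlier results of these data known. Named genes are the 10 members, up to 4 called genes per list with the largest log2 ratios, nearest protein-coding neighbours, the 5 nearest profiles and the mitochondrial rRNAs; further list genes are examples chosen after their values were seen. Alternatives were other scalings (DESeq2 1.42.0, total counts, mitochondrial genes left out), filters, folds, prior counts, FPKM, and exon-sharing genes summed.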

Additional observations from a re-analysis of the deposited data

How the results depend on the processing

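No paired analysis was possible because each group has 1 library. For a single RNA that stays in, filters and prior counts cannot change the ratio or the call, and fold limits cannot change the direction. Part of the agreement counted next was therefore fixed in advance. Of 654 alternative values for single RNAs, 622 kept direction and call, 20 lost the call, 9 gained it, and 3, none of them called, crossed from 1 side of no difference to the other. These were SNHG5 for TGF-β over control, at a ratio of 0.978 under total counts and from FPKM (1.03 under TMM), and MALAT1 for BDS4 over RVX-208, at 1.02 with DESeq2 size factors (0.999 under TMM). Apart from the fold limit, calls were lost by SNHG12 alone, whose log2 ratio with BDS4 was 0.93 over TGF-β and 0.95 over control under total counts, and 0.93 and 0.95 from FPKM. With a 3-fold limit the 10 RNAs had 4 called for BDS4 over TGF-β, 1 for RVX-208 over TGF-β, 2 for BDS4 over RVX-208, 4 for BDS4 over control and 0 for RVX-208 over control. With a 1.5-fold limit TGF-β over control had 2 and RVX-208 over control 4. With at least 5 CPM, H19 dropped out and TGF-β over control had 0. Without H19, by that filter or by leaving it out, a choice made after seeing the data, the median log2 ratio was 0.039 for TGF-β over control (-0.00 with it), 1.45 for BDS4 over RVX-208 (1.20 with it) and 1.49 for BDS4 over control (1.41 with it). With H19 kept, the median for BDS4 over control was 1.24 under total counts and from FPKM. Neither of these uses the TMM factors, 0.943 for BDS4 and 1.06 for the control, which shift every ratio of that comparison alike. Genes called in all, at 1.5-fold and at 3-fold, were 8201 and 2695 for BDS4 over TGF-β, 2745 and 552 for RVX-208 over TGF-β, 3074 and 672 for TGF-β over control, 6901 and 1862 for BDS4 over RVX-208, 8467 and 2709 for BDS4 over control, and 3786 and 883 for RVX-208 over control, against 5180, 1318, 1559, 3995, 5332 and 1976 at 2-fold. With at least 5 CPM they were 658 for RVX-208 over TGF-β, 863 for TGF-β over control and 1102 for RVX-208 over control. Depth limits H19 most, with 4 to 53 counts per library.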
